A study of Mus musculus with 6 samples.

Results

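The genes described here are 32 immediate early and heat shock genes of the mouse, taken from a named list and matched by Ensembl identifier in the count matrices of all 6 libraries. They are 32 of the 52081 genes that the 6 matrices share. The list was chosen with earlier results of these data known. The early response members number 23. They comprise 7 genes of the AP-1 family (Fos, Fosb, Fosl2, Jun, Junb, Jund, Atf3), 7 zinc finger and nuclear receptor transcription factors (Egr1, Egr3, Nr4a1, Nr4a2, Klf2, Klf4, Klf6) and 9 feedback regulators and other early response genes (Ier2, Ier3, Ier5, Dusp1, Btg2, Zfp36, Socs3, Gadd45b, Rhob). The other 9 members encode heat shock proteins and co-chaperones (Hspa1a, Hspa1b, Hsph1, Hspb1, Dnaja1, Dnajb1, Hspa8, Hsp90aa1, Hspe1).

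Immediate early genes are transcribed within minutes of a stimulus, from factors already present in the cell, and many of their messages are short-lived. Several of their proteins are transcription factors that act on later genes, and others, such as the phosphatase DUSP1 and the RNA-binding protein ZFP36, switch the response off again. Heat shock genes respond to unfolded protein through the factor HSF1. They include inducible chaperones such as HSPA1A and constitutive ones such as HSPA8, which cells hold at high levels without stress. Both groups are known to respond to the warm enzymatic digestion with which tissues are taken apart for single-cell work, and AP-1 factors such as JUN also act in Schwann cells after nerve injury.

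The libraries came from C57BL/6 mice with no transgene or treatment named. Single-cell libraries were made from sciatic nerve at postnatal day 0 (P0), P7, P14, P28 and P60, each from a pool of males and females (22, 21, 18, 15 and 13 animals in that order). A sixth library came from the lumbar dorsal root ganglia of 4 male and 4 female pups, 8 in all, at P14. The protocol in the labels is one text for both tissues: dissociation with collagenase IV, papain and DNase I in a water bath at 37 °C, lysis of red blood cells, and removal of dead cells with beads. The ganglion library is titled as cells, yet its molecule is given as nuclear RNA and the design text names nuclei, so its barcodes are called nuclei below, and how nuclei were isolated is not given in the sources used here. There was 1 library per age, so age, library and preparation cannot be told apart, differences between libraries carry no test, and intervals cover counting error only. Levels are UMIs (unique molecular identifiers, 1 per captured molecule) summed over the cells of a class in a library, scaled to counts per 1e6 UMIs of that sum (CPM). Values for the nerve libraries are given in the order P0, P7, P14, P28 and P60.

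After filtering, 48411 nerve barcodes and 5373 ganglion barcodes remained, with median depths of 3327 to 7694 UMIs in the nerve libraries and 1981 UMIs in the ganglion. The labels tag the nerve as Schwann cells and glia, but clustering without the members and related lists gave 6 nerve classes, each named from its markers and standing for cells like that type: Schwann, endothelial, mural (pericytes and smooth muscle), mesenchymal (fibroblasts), perineurial and macrophage. No marker of a nerve class was at 0 in its own class in any library. Between 0.916% and 25.9% of a nerve library's barcodes stayed unnamed, the most at P0, where no perineurial class was found. The ganglion gave these 6 classes, neurons and satellite glia, but there only 3 of 8 mesenchymal markers, and 5 of 8 each of the neuron, satellite glia and perineurial markers, were highest in their own class. Between 10 and 40 barcodes, at most 0.382% of a library, were shared by a pair of libraries. The P7 counts came from Cell Ranger 7.0.0, those of the other nerve libraries from 5.0.1 and those of the ganglion from 7.1.0, and whether introns were counted is not given in the sources used here. At a level of 100 CPM the 95% Poisson interval in the shallowest Schwann sum, 4014625 UMIs at P60, was 90.3 to 110.2 CPM, and in the shallowest sum of all, 479239 UMIs of endothelial cells at P7, it was 73.8 to 132.8 CPM.

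The early response members varied widely between the nerve libraries, with sums lowest at P0 or P14 and highest at P7, P28 or P60 in each class. Summed over the 23 early members, Schwann cells held 2717, 14529.9, 4036, 14066 and 18588 CPM. Endothelial cells held 3642, 15449.5, 5562, 11031 and 10668 CPM, mural cells 3627, 10818, 3805, 10874 and 13098 CPM and mesenchymal cells 3132, 10962, 2904, 8189 and 11998 CPM. Macrophages had the highest sum of any class at P0, P7 and P14, with 4879, 21102, 6675, 13543 and 16429.5 CPM. Perineurial cells held 6203, 3580.2, 9068 and 5245 CPM from P7 to P60. The P60 library was thus the highest in Schwann, mural and mesenchymal cells, the P7 library in endothelial cells and macrophages, and the P28 library in perineurial cells.

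**Figure D1:**
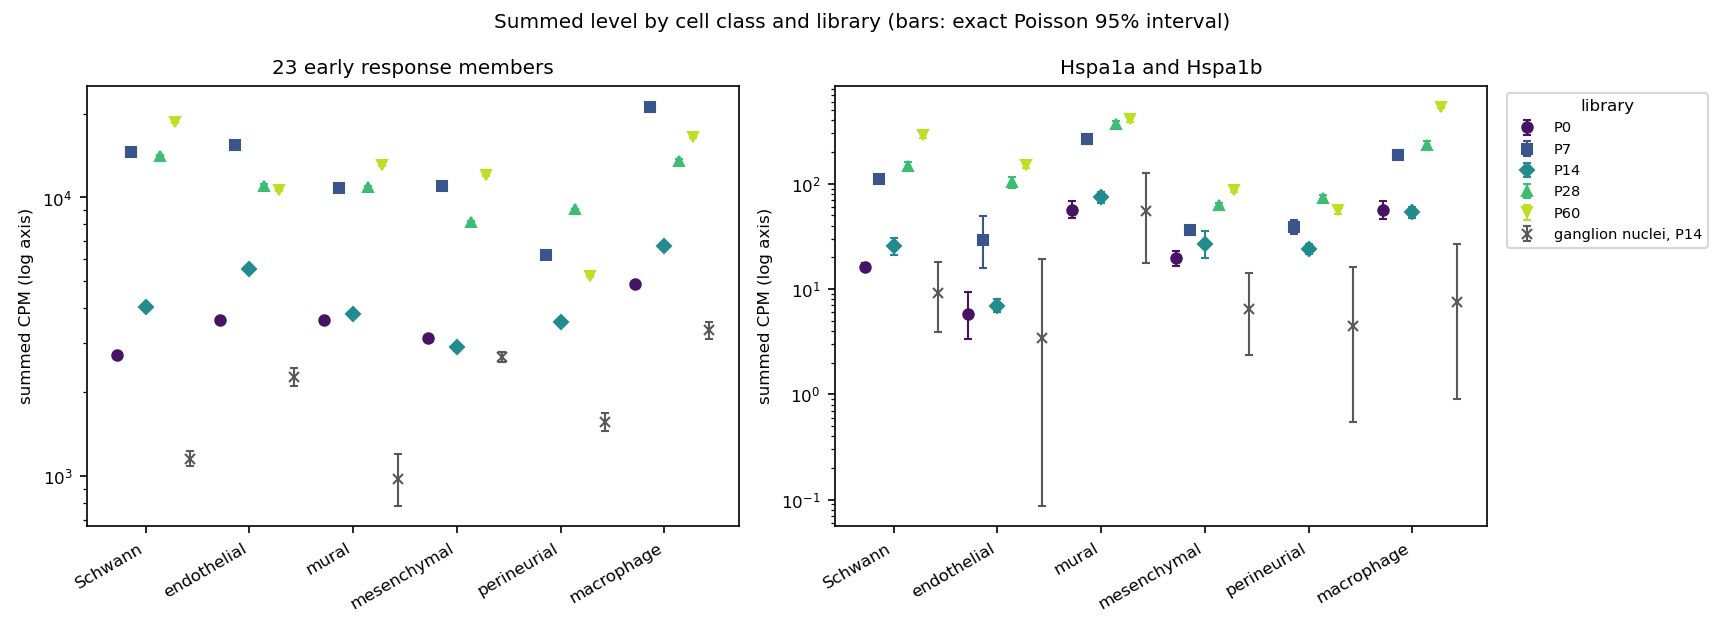
Summed level of the 23 early response members and of Hspa1a with Hspa1b (CPM, log axis) in each class, with 1 point per nerve library and a cross for the ganglion nuclei, each with its 95% Poisson interval. In Schwann cells the early sum lies at 2717 CPM at P0 and 4036 CPM at P14, and between 14066 and 18588 CPM at P7, P28 and P60.

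All 32 members had a mean of at least 10 CPM in each of the 6 classes, so every member entered the counts of range that follow. In Schwann cells 22 of 32 members differed at least 4-fold between the highest and the lowest library, 19 of the 23 early and 3 of the 9 heat shock members, where 13.2% of all genes at 10 CPM or more did. The corresponding number was 22 in mesenchymal cells (all genes 11.7%), 21 in macrophages (11.9%), 19 in mural cells (11.8%) and 18 in endothelial cells (11.2%). In perineurial cells, measured in 4 libraries, it was 7, all early members (4.92%). The median early member differed 7.78-fold in Schwann cells and 6.43-fold in mesenchymal cells, against 1.98-fold and 1.84-fold for the median gene. The median heat shock member, at 1.90-fold in Schwann cells and 2.31-fold in mesenchymal cells, lay near the median gene. Every one of the 23 early members was highest at P7, P28 or P60 in each class, and in Schwann, mural and macrophage sums each was lowest at P0 or P14. That grouping of libraries was seen in these same sums. The share of all genes with such an order was not counted, so these 2 statements describe the members only. Classes were not compared by a test of these ranges. Over the 4 libraries from P7 to P60 that all classes share, the median early range was 6.54-fold in Schwann, 5.64-fold in mesenchymal, 5.17-fold in mural, 3.6-fold in macrophage, 3.37-fold in perineurial and 2.99-fold in endothelial cells.

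From library to library, the early members of Schwann cells moved together. At P7 over P0, 19 of 23 were at least 2-fold higher (all genes 5.07%), with a median log2 ratio of 2.54 against -0.26 for all genes. At P14 over P7, 15 were at least 2-fold lower (all genes 2.5%), with a median of -1.66 against 0.36. At P28 over P14, 18 were at least 2-fold higher (all genes 4.42%), with a median of 1.69 against -0.14. At P60 over P28 only Socs3 and Klf2, chosen for mention after their values were seen, were at least 2-fold higher (all genes 2.06%). In perineurial cells 9 of 23 early members were at least 2-fold lower at P60 than at P28 (all genes 3.82%). Their median mitochondrial share was 7.24% at P60 and 3.61% at P28, and its part in the result was not tested. Scaling by the median of ratios instead of the total would subtract the same amount from all log2 values of a step. In Schwann cells the amount subtracted was -0.22 for P7 over P0 and 0.15 for P14 over P7. Because the cells of a class lay mostly in different clusters in different libraries, a step also compares clusters: for Schwann cells these were clusters 1, 6, 4, 7 and 7, for endothelial cells 14, 15, 14, 14 and 18, for mesenchymal cells 12, 19, 28, 31 and 31, for macrophages 8, 38, 37, 41 and 11, for perineurial cells 22, 30, 27 and 27 from P7 on, and for mural cells cluster 17 in every library.

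Free RNA can carry messages between classes, and its part in these levels was not tested. In the 5 other classes the Fos level lay between 15.6% and 164% of the Schwann level of the same library, with a median of 57.8%.

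The AP-1 family forms dimeric transcription factors, with FOS proteins pairing with JUN proteins. Fos read 195, 2604, 439.8, 2408 and 3319.6 CPM in Schwann cells, so that the P60 value was 17.1 times the P0 value. Counting error was small, with a 95% interval of 190.5 to 199 CPM at P0 and 3263 to 3376 CPM at P60. In macrophages Fos read 319.7, 1971, 547, 1410.3 and 1467 CPM, with its highest value at P7. It stood at 167, 1546, 250.4, 999.6 and 977 CPM in endothelial cells, 282, 1420.3, 375, 1827 and 2125 CPM in mural cells and 216, 1369, 211, 1218 and 1882 CPM in mesenchymal cells. Perineurial cells had 718, 271, 1221 and 519 CPM from P7 to P60. In each of the 5 classes measured at P0, the P0 and P14 values of Fos lay below those of P7, P28 and P60 with no overlap.

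Jun varied less than Fos. In Schwann cells it read 796, 2829, 648, 2090.2 and 2364 CPM, with its lowest value at P14 and its highest at P7. Macrophages held 1062, 3558, 1075, 1953 and 2022 CPM and mesenchymal cells 527, 1827, 438, 1352 and 1824 CPM. Endothelial cells held 528, 2068, 710.4, 1634 and 1228 CPM, mural cells 571, 1755, 586, 1585 and 1749.8 CPM and perineurial cells 991, 474, 1111 and 595 CPM from P7 on, and P7 was the highest library in each of these classes but the perineurial one. Atf3, a stress-induced member of the wider family that injured neurons and Schwann cells switch on, read 113, 479.9, 96.8, 438 and 637 CPM in Schwann cells. In macrophages Atf3 read 226, 1066, 165, 669 and 858 CPM, in endothelial cells 50.6, 240.0, 26.3, 197 and 154 CPM and in mural cells 79.3, 224, 15.6, 271 and 479 CPM, lowest at P14 in all 3. Mesenchymal cells had 55.7, 142, 6.98, 131 and 263 CPM of it, so low at P14 that the highest library was 37.7 times the lowest. Fosl2 read 13.1, 29.3, 44.2, 51.6 and 90.2 CPM in Schwann cells, and P14 lay above P7 for it, unlike for the other AP-1 members. Among the rest of the family in Schwann cells, Fosb ranged from 28.7 CPM at P0 to 949.5 CPM at P60, Junb from 94.9 CPM at P0 to 2154 CPM at P60 and Jund from 347 CPM at P0 to 1297 CPM at P60. Jund, which many cells transcribe without a stimulus, had the narrowest range of the 7 in Schwann cells at 3.73-fold. Jun and Jund overlap antisense genes and Junb overlaps Prdx2 on the other strand, and since strand use in counting is not stated, their counts are uncertain.

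The promoters of Fos and Dusp1 are shown as examples of the kind of sequence through which early genes are switched on. Both genes moved strongly between libraries, and a link between sequence and levels was not tested. The 150 bases before the transcription start are printed from RefSeq (GRCm38.p6) for Fos at chr12:85473740-85473889 on the plus strand and for Dusp1 at chr17:26508473-26508622 on the minus strand. Capitals mark TGACG, the core of the cAMP response element, and TATAAA, the TATA box, in Fos, and the whole cAMP response element TGACGTCA in Dusp1.
Fos: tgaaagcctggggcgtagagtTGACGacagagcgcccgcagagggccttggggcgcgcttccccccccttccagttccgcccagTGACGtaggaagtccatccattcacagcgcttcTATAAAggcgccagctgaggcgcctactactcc
Dusp1: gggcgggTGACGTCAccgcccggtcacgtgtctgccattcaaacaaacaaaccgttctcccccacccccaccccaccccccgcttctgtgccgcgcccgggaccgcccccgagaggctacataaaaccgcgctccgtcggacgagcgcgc
In Fos the capitals end 124, 61 and 27 bases before the start in the order shown. Of the 27 members with a promoter in the table, Dusp1 and Btg2 held TGACGTCA within 250 bases before the start, where 1.55% of 32851 promoters did. The shorter TGACG, which TGACGTCA contains, was in 13 of 27 members and 17.8% of promoters (both strands). TATAAA on the gene's strand was in Fos and Gadd45b and in 7.59% of promoters. The AP-1 site TGANTCA was in none of the 27 and in 6.75% of promoters. CCAAT was in 13 of 27 and 33.8%. A CArG box, the site of serum response factor, was in Zfp36 alone among the 27 members and in 1.47% of promoters. These are matches of letters within 250 bases before the start, on both strands except for TATAAA. Sites further away were not searched, so a member without a match here may hold one there. A member counted if any of its windows matched, while the percentages are over single windows. Hsph1 and Dnajb1 had 2 windows each and Dnaja1 had 3. Hspa8, Hsp90aa1, Egr1, Egr3 and Ier2 are not in the promoter table.

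**Figure D2:**
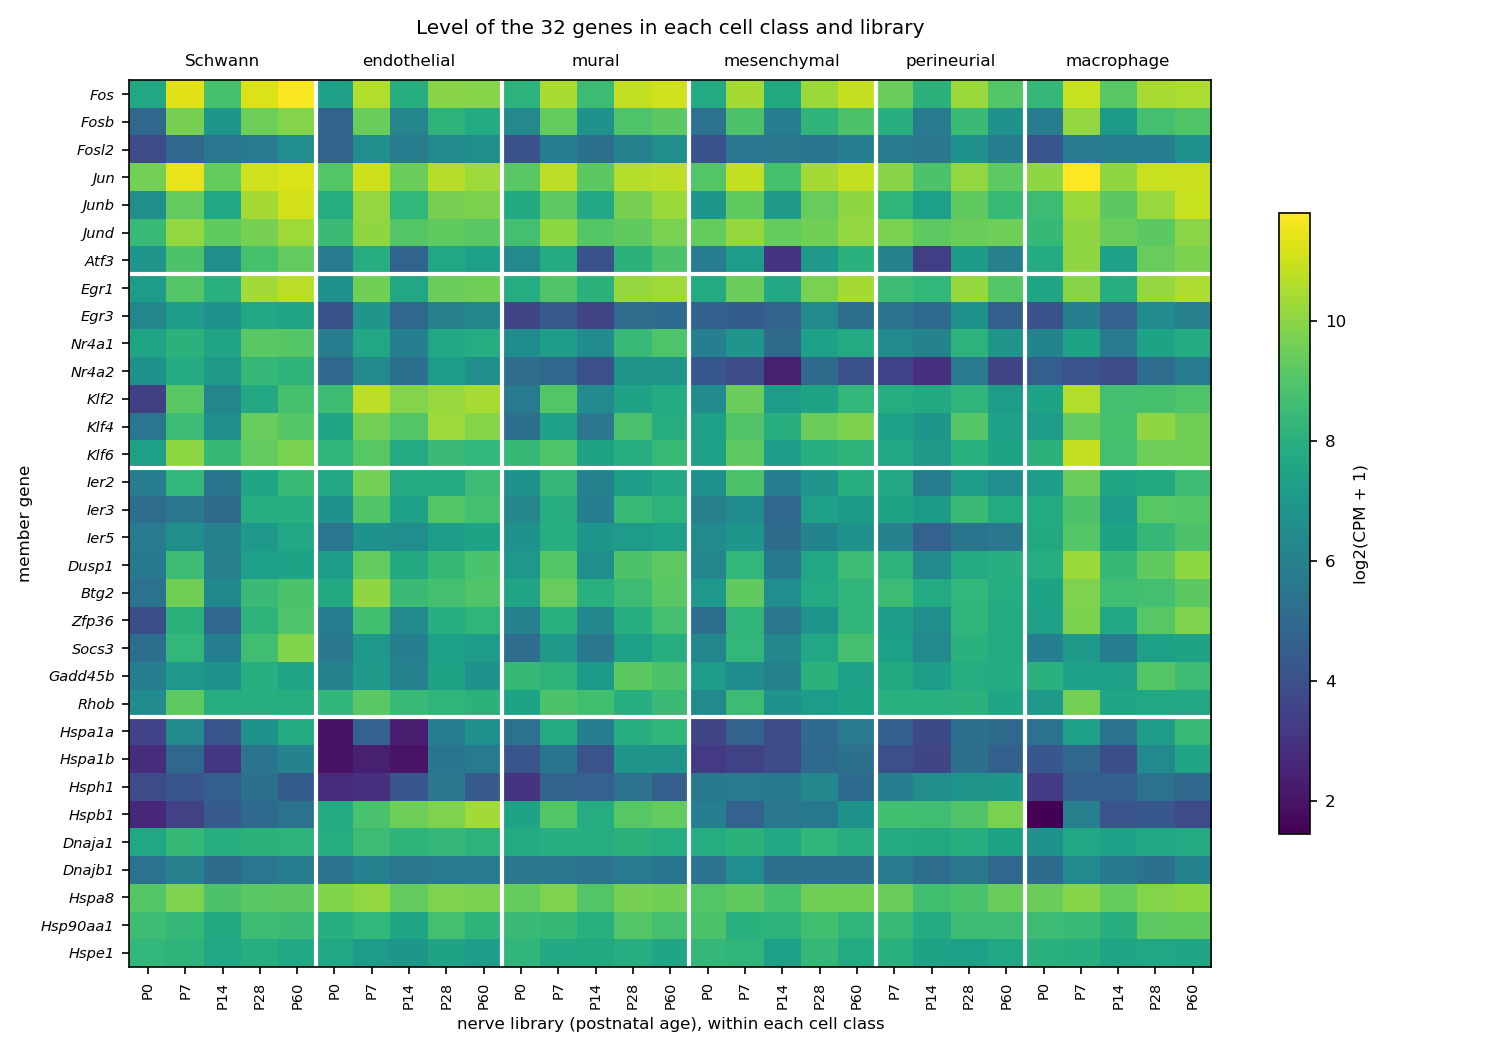
Level of each of the 32 members (log2 of CPM + 1) in every nerve class and library, with genes in rows grouped by role and libraries from P0 to P60 within each class. Brighter colours are higher levels: the P0 and P14 columns are darker for most early response members in the 5 classes that hold both libraries, while Hspa8 and Hsp90aa1 have nearly even colour across libraries.

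Among the zinc finger and nuclear receptor factors, Egr1, which is induced with Fos by growth factor signals, read 137, 527, 258, 1316 and 1691 CPM in Schwann cells. In macrophages Egr1 read 182, 982, 239, 1154 and 1466 CPM and in perineurial cells 378, 312, 1143 and 529 CPM from P7 on. It read 103, 766, 198, 695 and 755 CPM in endothelial cells, 228, 502, 276, 1129 and 1281 CPM in mural cells and 217, 699, 208, 845 and 1335 CPM in mesenchymal cells. The highest library was P60 in Schwann, mural and mesenchymal cells and macrophages, P7 in endothelial cells and P28 in perineurial cells. Egr3 and the orphan nuclear receptor Nr4a2 varied less in Schwann cells. Egr3 read 73.4, 138, 103, 208 and 177 CPM there, and Nr4a2 107, 223, 126, 326 and 286 CPM. Both had their highest Schwann value at P28. Klf2, a factor that endothelial cells hold under laminar flow, read 9.75, 564, 69.6, 208 and 441 CPM in Schwann cells, a 57.9-fold range that was the widest of the 32 members in that class. In endothelial cells Klf2 read 384, 1761, 928, 1189 and 1376 CPM and was highest at P7 there too. The rest of this group ranged in Schwann cells from 177 CPM at P0 to 561 CPM at P28 for Nr4a1, from 44.6 CPM at P0 to 673 CPM at P28 for Klf4 and from 161 CPM at P0 to 1048 CPM at P7 for Klf6.

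The group of feedback regulators and other early response genes includes some whose proteins end signalling or remove early messages. Dusp1, a phosphatase that inactivates MAP kinases, read 48.7, 385, 60.4, 156 and 176 CPM in Schwann cells and 233, 1203, 334, 614 and 1066 CPM in macrophages. It was highest at P7 in both. Ier3, an early gene that modulates survival signals, read 34.2, 46.9, 31.9, 240.3 and 248 CPM in Schwann cells, where P7 lay close to P0 and P14 and well below P28 and P60. In endothelial cells Ier3 read 102, 507, 162, 518 and 421 CPM, and P7 there lay with P28 and P60. In Schwann cells Socs3, an inhibitor of cytokine receptor signalling, ranged from 35.7 CPM at P0 to 922 CPM at P60. Zfp36, whose protein promotes decay of AU-rich messages, ranged from 14.3 CPM at P0 to 487 CPM at P60, and the antiproliferative gene Btg2 from 39.4 CPM at P0 to 749 CPM at P7. Rhob, a small GTPase gene, ranged from 86.0 CPM at P0 to 601 CPM at P7 and Gadd45b, a stress-signalling gene, from 58.0 CPM at P0 to 254 CPM at P28. Ier2 ranged from 44.0 CPM at P14 to 346 CPM at P60 and Ier5 from 49.6 CPM at P0 to 202 CPM at P60. Dusp1 overlaps Ergic1 and Zfp36 an antisense gene on the other strand, so their counts share the uncertainty of Junb. On its own strand Dusp1 also overlaps AC122252.1 over 1853 bases.

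Of the heat shock members, the inducible pair Hspa1a and Hspa1b had the widest ranges between libraries in Schwann cells. Hspa1a, the stress-inducible HSP70, read 10.5, 81.8, 17.7, 106 and 223 CPM in Schwann cells. Its near copy Hspa1b read 5.81, 28.6, 7.86, 42.0 and 67.5 CPM. Both were lowest at P0 and highest at P60. In mural cells Hspa1a read 39.4, 222, 58.1, 250.3 and 302 CPM and Hspa1b 17.2, 43.5, 16.1, 115 and 112 CPM, and in macrophages they read 38.8, 161, 39.1, 147 and 344 CPM and 18, 28.4, 14.3, 84.2 and 191 CPM. Endothelial cells had 2.91, 25.0, 3.95, 59.7 and 99.9 CPM of Hspa1a, so that the mural value exceeded the endothelial value in all 5 libraries. Hspa1b read 2.91, 4.17, 2.99, 43.5 and 51.9 CPM in endothelial cells. Mesenchymal cells had 11.4, 25.6, 13.4, 32.7 and 50.2 CPM of Hspa1a and 8.19, 10.4, 13.4, 30.3 and 37.6 CPM of Hspa1b, and perineurial cells 24.0, 12.7, 36.2 and 32 CPM and 14.9, 11.2, 37.5 and 24.2 CPM from P7 on. The order of the libraries was not that of the early members in every class: in endothelial cells and macrophages both genes were highest at P60, where the early sum was highest at P7, and mesenchymal Hspa1b was higher at P14 than at P7. The pair's counts are uncertain between the copies: 49.3% of the 90-base words of the Hspa1a transcript occur in that of Hspa1b, though none of those in the last 500 bases do. Hspa1a also overlaps the protein-coding gene Gm20481 on the other strand over 2225 bases, so its counts share the uncertainty of Junb. Summed, the pair held 16.3, 110.5, 25.6, 148 and 290.4 CPM in Schwann cells and 56.6, 266, 74.3, 365 and 413 CPM in mural cells.

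The promoters of Hspa1a, Hspa1b and Hsph1 are shown because heat shock elements, the sites of HSF1, lie in them. They are from RefSeq (GRCm38.p6), all on the minus strand: Hspa1a at chr17:34972157-34972406, Hspa1b at chr17:34959239-34959488 and Hsph1 at chr5:149636337-149636486. Capitals mark a pair of heat shock units facing each other, GAANNTTC or TTCNNGAA.
Hspa1a: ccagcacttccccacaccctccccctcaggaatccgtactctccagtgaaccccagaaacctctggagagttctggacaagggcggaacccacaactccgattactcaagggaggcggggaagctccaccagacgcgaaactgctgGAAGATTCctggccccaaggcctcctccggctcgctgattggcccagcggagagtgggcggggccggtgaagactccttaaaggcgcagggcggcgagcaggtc
Hspa1b: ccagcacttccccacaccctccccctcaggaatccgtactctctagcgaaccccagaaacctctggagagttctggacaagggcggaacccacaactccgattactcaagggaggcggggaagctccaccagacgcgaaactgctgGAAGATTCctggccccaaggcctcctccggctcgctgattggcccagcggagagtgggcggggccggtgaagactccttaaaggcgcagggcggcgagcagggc
Hsph1: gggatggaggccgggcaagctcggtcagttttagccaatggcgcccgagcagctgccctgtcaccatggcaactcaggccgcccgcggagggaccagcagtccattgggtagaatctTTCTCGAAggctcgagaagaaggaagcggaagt
The Hspa1a and Hspa1b windows were identical at 247 of 250 bases, and the marked pair ends 96 bases before the start in both. In Hsph1 it ends 25 bases before the start. Such a pair was in 12.8% of all promoters, in 6 of the 7 heat shock members with a promoter in the table (Dnajb1 was the other) and, among early members, in Fosl2 and Jun. Here too a member counted if any of its windows matched, while the percentage is over single windows. A run of 3 such units was in Hspe1 alone of the members and in 0.466% of promoters. The heat shock members that held the pair varied unequally between libraries in Schwann cells. Hspa1a, Hspa1b and Hspb1 differed 21.2-, 11.6- and 8.01-fold, and Hsph1, Dnaja1 and Hspe1 2.74-, 1.68- and 1.64-fold. A link between the letters and these ranges was not tested.

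Hspa8, the constitutive HSC70, read 543, 899, 473, 574 and 584 CPM in Schwann cells, 706, 964, 655, 944 and 1047 CPM in macrophages and 904, 1121, 642, 885 and 848 CPM in endothelial cells. Mural cells had 656, 879, 516, 809 and 766 CPM, mesenchymal cells 521, 614, 443, 747 and 744 CPM and perineurial cells 689.6, 404, 464 and 699 CPM from P7 on. Its highest library was at most 1.90 times its lowest in any class. Hsp90aa1, the inducible form of HSP90, stayed within 2.46-fold in every class, the HSP40 co-chaperones Dnaja1 and Dnajb1 within 2.07- and 2.52-fold, and the mitochondrial co-chaperonin Hspe1 within 2.09-fold. Hsph1, a nucleotide exchange factor of HSP70, ranged in Schwann cells from 13.7 CPM at P0 to 37.4 CPM at P28. Hspb1, the small heat shock protein HSP27, read 5.04, 10.0, 20.4, 31.1 and 40.4 CPM in Schwann cells and 224, 455, 722, 889 and 1303 CPM in endothelial cells, with no overlap between these classes. It did not follow the order of the early members, since its endothelial value at P14 lay above that at P7. Counts of Hspe1 and Dnaja1 are uncertain where they overlap Hspd1 and Smu1.

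A further question was which cell types held more of each member. For this, sums of the 6 classes were compared within libraries with edgeR's quasi-likelihood test, the library as a block and Benjamini-Hochberg adjustment over all 16608 genes tested. Adjusted p-values below are from that test, two-sided, at 0.05. The 5 libraries are different ages from different pools, so the spread they give holds age and preparation too. Each class was set against Schwann cells, and the 5 comparisons therefore share the Schwann sums. Egr3, Nr4a1 and Nr4a2 were lower than in Schwann cells in each of the 5 comparisons, but the mural Nr4a1 call (-0.79) was lost without P0, P7 or P14, at adjusted p = 0.055, 0.08 and 0.059 (edgeR).

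Macrophages held more than Schwann cells of 16 of the 32 members and less of 5, where 25.8% of all genes were higher and 31.5% lower. The median member was 0.52 above Schwann on the log2 scale, and the median gene -0.09. Dusp1, with the values given above, was higher in 5 of 5 libraries, with a log2 fold change of 2.29 (SE 0.27, adjusted p = 1.2e-07, edgeR). Ier3 read 225, 481, 139, 559 and 536 CPM in macrophages and was higher in 5 of 5 libraries, with a log2 fold change of 2.19 (SE 0.28, adjusted p = 4.9e-07, edgeR). Of the 9 members grouped as feedback regulators and other early response genes, 7 were higher and Socs3 was lower. Zfp36 stood at 1.92 (adjusted p = 6.1e-05) and Ier5 at 1.88 (adjusted p = 4.0e-07) in edgeR. Nr4a2 read 22, 15.9, 13.5, 34.5 and 52.5 CPM in macrophages and was lower in 5 of 5 libraries, with a log2 fold change of -2.81 (SE 0.36, adjusted p = 6.4e-07, edgeR). The chaperones Hspa1a (1.14), Hspa1b (1.14) and Hspa8 (0.64) were also higher, while Fos (-0.13, adjusted p = 0.69, edgeR) and Jun did not pass. Without the P60 library the adjusted p of Hspa1b was 0.051 (edgeR), and the lower count was 3 without P7 and 3 without P28, since the Dnaja1 and Socs3 calls were lost there. Atf3 (0.97) was higher too, but its adjusted p was 0.055 (edgeR) with coarser clusters. Of 30 tested genes from a list of 34 other early response genes, 16 were higher and 3 lower, among them the phosphatase Dusp2 at 4.83 and the myelination factor Egr2 at -1.01. Of 11 tested early response cytokine genes 9 were higher, led by Ccl4 at 8.96 and Ccl3 at 8.55, which macrophages are known to make, and of 12 genes of the endoplasmic reticulum stress response 7 were higher and none lower. Of 19 other heat shock and HSF1 genes 1 was higher and 6 lower, with the small heat shock protein gene Cryab lowest at -5.06.

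**Figure D3:**
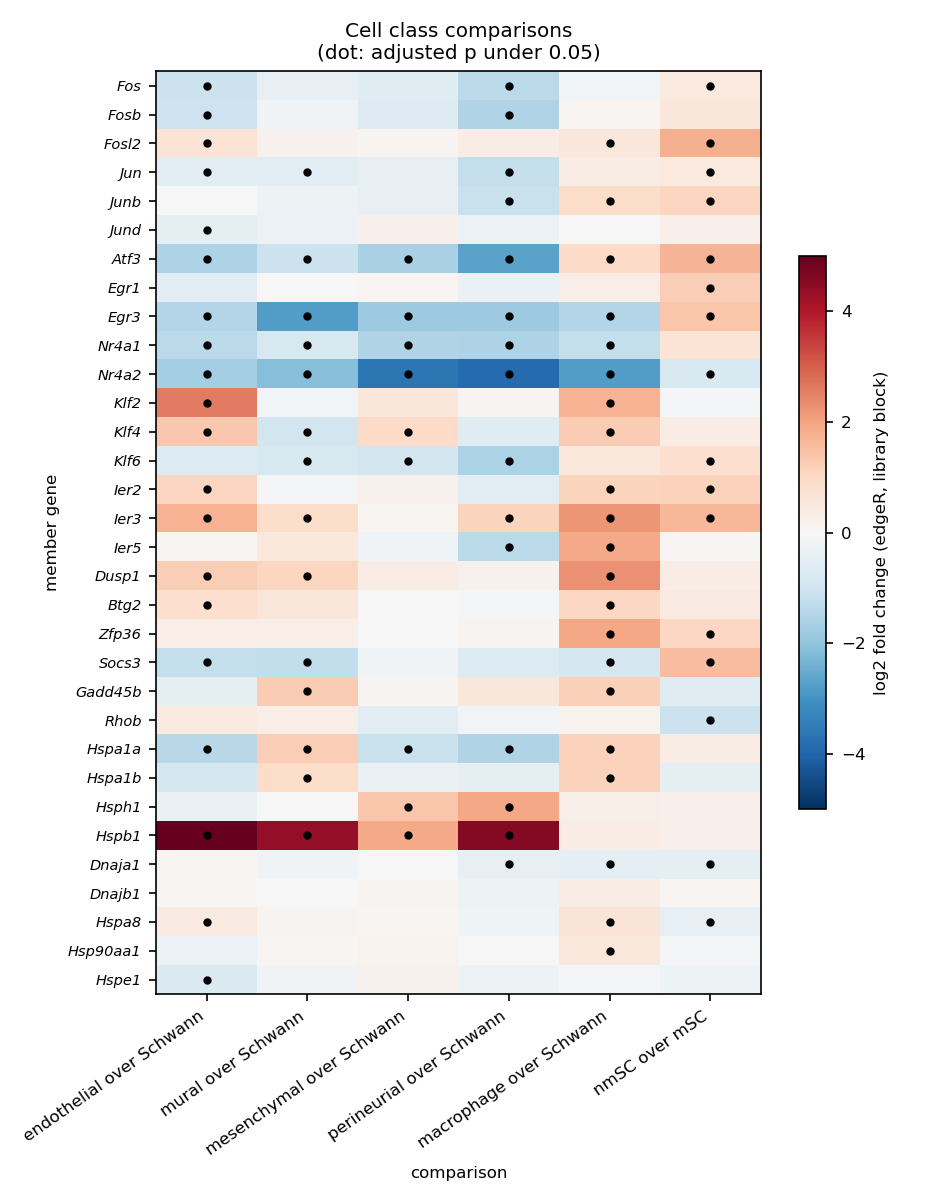
Log2 fold change of each member (rows, colour scale from -5 to 5, so that the endothelial Hspb1 value of 5.14 takes the end colour) in the 5 classes against Schwann cells and in non-myelinating over myelinating Schwann cells (nmSC over mSC), from edgeR with the library as a block, with a dot where the adjusted p was under 0.05. Nr4a2 is blue (lower) with a dot in all 6 columns, and Hspb1 is deepest red (higher) in endothelial, mural and perineurial cells.

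Endothelial cells held more of 9 members and less of 11 (all genes 22.3% higher, 26.9% lower). Hspb1 was higher in 5 of 5 libraries, with a log2 fold change of 5.14 (SE 0.54, adjusted p = 4.3e-08, edgeR). Klf2 was higher in 5 of 5 libraries, with a log2 fold change of 2.61 (SE 0.45, adjusted p = 4.4e-05, edgeR). Ier3 followed in 5 of 5 libraries, with a log2 fold change of 1.72 (SE 0.28, adjusted p = 1.6e-05, edgeR). Dusp1 at 1.22 (adjusted p = 4.1e-04) and Klf4, another flow-responsive factor, at 1.36 (adjusted p = 4.3e-04) were also higher in edgeR. Of the AP-1 family 5 of 7 were lower and Fosl2 was higher. Fos was lower in 5 of 5 libraries at -1.09 (adjusted p = 0.0013, edgeR). Atf3 was lower in 5 of 5 libraries at -1.53 (adjusted p = 4.7e-04, edgeR). Hspa1a was lower too, at -1.38 (adjusted p = 0.0019), in 5 of 5 libraries (edgeR). The Jun call (-0.53) rested on single libraries, with edgeR's adjusted p at 0.1 without P0, 0.33 without P7, 0.1 without P28 and 0.098 without P60. The Jund call (-0.44) was lost without P7, P14, P28 or P60, at adjusted p = 0.2, 0.059, 0.14 and 0.25 (edgeR). It was also lost without TMM factors, at adjusted p = 0.057 (edgeR). Thus 3 of the 5 lower AP-1 calls held without P7, P28 or P60. The Hspa8 call (0.43) was lost without P0, P14 or P28, at adjusted p = 0.15, 0.11 and 0.062 (edgeR). Of the 30 other early response genes tested 15 were higher, among them Dusp2 at 5.23 and the kinase Sik1 at 2.42, and 5 lower, among them Egr2 at -3.92 and Arc at -2.16. The other heat shock list had 2 higher and 8 lower of 19, with Hspb8 at 3.09 and Cryab at -5.85, the stress list 3 and 3 of 12, and the cytokine list 2 and 1 of 11.

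In mural cells 6 members were higher and 8 lower (all genes 18.6% and 23.1%). Hspb1, which smooth muscle is known to hold, read 174, 515, 230.1, 554 and 636 CPM and was higher in 5 of 5 libraries, with a log2 fold change of 4.39 (SE 0.52, adjusted p = 4.1e-07, edgeR). Hspa1a was higher in 5 of 5 libraries, with a log2 fold change of 1.24 (SE 0.33, adjusted p = 0.0039, edgeR). No heat shock member was lower. Egr3 read 11.3, 19.8, 11.0, 34.5 and 33.0 CPM and was lower in 5 of 5 libraries, with a log2 fold change of -2.80 (SE 0.32, adjusted p = 1.9e-07, edgeR). Nr4a2 read 34.5, 29.2, 14.8, 111 and 112 CPM and was lower in 5 of 5 libraries, with a log2 fold change of -2.14 (SE 0.35, adjusted p = 3.0e-05, edgeR). Hspa1b (0.92) lost its call without P0, P14 or P28, at adjusted p = 0.15, 0.057 and 0.16 (edgeR). Atf3 (-1.06) lost it without P7 or P14, at adjusted p = 0.11 and 0.069 (edgeR). Of the fits without 1 library, only that without P60 kept the Jun call (-0.51), and DESeq2 gave it an adjusted p of 0.069. The number of lower members was 3 without P7 and 4 without P14. The other early response list had 10 higher, led by Gem at 2.57 and Gadd45g at 2.13, and 7 lower, led by Egr2 at -2.52 and Plk2 at -2.11, of 30. Of the other heat shock genes 3 were higher and 4 lower, with Hspb8 at 5.14 and Cryab at -2.29, of the stress genes 4 were lower and none higher, and of 11 cytokine genes 7 were higher, led by Il6 at 5.94, and 1 lower.

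Mesenchymal cells differed from Schwann cells in the fewest members, with 3 higher and 6 lower (all genes 22.9% and 23%). Nr4a2 read 18.6, 13.8, 4.07, 32.1 and 15.2 CPM and was lower in 5 of 5 libraries, with a log2 fold change of -3.61 (SE 0.37, adjusted p = 5.8e-08, edgeR). Egr3 read 24.7, 21.9, 25.6, 81.3 and 35.6 CPM and was lower in 5 of 5 libraries, with a log2 fold change of -1.81 (SE 0.29, adjusted p = 2.3e-05, edgeR). Hspb1 read 59.5, 25.3, 47.1, 48.9 and 105 CPM and was higher in 5 of 5 libraries, with a log2 fold change of 1.91 (SE 0.48, adjusted p = 0.0024, edgeR). Atf3 was lower in 5 of 5 libraries at -1.62 (adjusted p = 3.3e-04), and Hsph1 higher in 5 of 5 libraries at 1.40 (adjusted p = 1.7e-04) (edgeR). Hspa1a (-1.10) lost its call without P7 or P28, at adjusted p = 0.11 and 0.08 (edgeR). None of the 9 members grouped as feedback regulators and other early response genes passed. Without TMM scaling factors 10 members were lower, and the median of all genes moved from -0.05 to -0.17, with 3280 genes higher and 4812 lower in place of 3808 and 3812. Of the other early response genes 5 were higher, among them Gem at 2.63, and 7 lower, among them Egr2 at -2.83, of the stress genes 7 higher, led by Trib3 at 1.68, and of the cytokine genes 6 higher, led by Il6 at 5.82, and 1 lower. Of the other heat shock genes 2 were higher and 4 lower, with Hspb8 at 4.78 and Cryab at -4.27.

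Perineurial cells, which form the sheath around nerve bundles, held less of 12 members and more of 3 in 4 libraries (all genes 22% lower and 21.4% higher). Hspb1 read 410.3, 391, 503 and 839 CPM and was higher in 4 of 4 libraries, with a log2 fold change of 4.60 (SE 0.54, adjusted p = 3.4e-07, edgeR). Nr4a2 read 10.6, 6.28, 52.4 and 11.4 CPM and was lower in 4 of 4 libraries, with a log2 fold change of -3.84 (SE 0.41, adjusted p = 1.1e-07, edgeR). With doublets kept its log2 fold change was -3.07. Atf3 read 66.2, 9.46, 134 and 61.8 CPM and was lower in 4 of 4 libraries, with a log2 fold change of -2.69 (SE 0.38, adjusted p = 3.6e-06, edgeR), or -1.82 with coarser clusters. Fos was lower in 4 of 4 libraries at -1.35 (adjusted p = 4.4e-04) and Jun in 4 of 4 libraries at -1.21 (adjusted p = 9.2e-05) (edgeR). Hspa1a was lower at -1.49 (adjusted p = 0.0018) and Hsph1 higher at 1.92 (adjusted p = 9.4e-06) in edgeR. Of the other early response genes 7 were higher, led by Plk2 at 1.67, and 10 lower, led by Arc at -3.57. The other heat shock list had 2 higher and 5 lower, with Hspb8 at 4.56 and Cryab at -2.69, the stress list 3 higher and none lower, and the cytokine list 1 each way. Cryab was thus lower, and Egr2 lower, in each class set against Schwann cells, and Hspb8 was higher in each but macrophages.

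Within the Schwann lineage, cells with markers of non-myelinating Schwann cells (nmSC) were compared with those of myelinating ones (mSC) in the same way. The test ran over 13420 genes. Mature non-myelinating cells enclose small axons in Remak bundles. Both names stand for cells with these markers, and whether the nmSC of the early libraries were mature was not tested. Between 575 and 2116 nmSC and between 136 and 3669 mSC entered per library, and the median depth of mSC was higher in each library (3416 to 16456 against 1922 to 6318 UMIs per cell). Of the 23 early members 12 were higher in nmSC, 2 lower and 9 not called (all genes 21% higher and 17.4% lower), and of the 9 heat shock members 2 were lower and none higher. Fosl2 read 21.8, 91.0, 72.6, 65.2 and 103 CPM in nmSC and 4.31, 8.70, 20.7, 30.7 and 43.4 CPM in mSC. It was higher in 5 of 5 libraries, with a log2 fold change of 1.79 (SE 0.27, adjusted p = 5.8e-04, edgeR). Atf3 read 221, 1223, 141, 547 and 729 CPM in nmSC and 26.6, 182, 40.4, 279.9 and 296 CPM in mSC, higher in 5 of 5 libraries, with a log2 fold change of 1.71 (SE 0.25, adjusted p = 4.2e-04, edgeR). For Ier3 the values were 53.9, 93.2, 47.4, 355 and 299 CPM and 18, 33.3, 19.2, 56.1 and 48.0 CPM. Ier3 was higher in 5 of 5 libraries, with a log2 fold change of 1.66 (SE 0.25, adjusted p = 4.9e-04, edgeR). Egr1 read 213, 1131, 434, 1645 and 1807 CPM in nmSC and 38.8, 338, 101, 830.4 and 1439 CPM in mSC, with a log2 fold change of 1.25 (SE 0.25, adjusted p = 0.0027, edgeR). Socs3 (1.54), Ier2, Junb, Zfp36 and Klf6 were also higher, each in 5 of 5 libraries, and so was Egr3 (1.37), whose adjusted p was 0.063 without P7 (edgeR). Rhob (-1.06) was lower, though at P7 it read 784 CPM in nmSC and 524 CPM in mSC. Nr4a2 (-0.76) was lower too, though its CPM was lower in only 3 of 5 libraries.

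Fos was among the higher members, though its levels were nearly equal at P60. It read 279, 3759.8, 596, 2707 and 3422 CPM in nmSC and 109.6, 2151, 263, 2001 and 3343 CPM in mSC, higher in 5 of 5 libraries, with a log2 fold change of 0.50 (SE 0.17, adjusted p = 0.039, edgeR). That call was lost without P0, P7, P14 or P28, at adjusted p = 0.16, 0.072, 0.2 and 0.066 (edgeR). Jun (0.50) lost its call without P0, P7 or P14, at 0.15, 0.14 and 0.22 (adjusted p, edgeR). Hspa8 was lower in nmSC in 5 of 5 libraries at -0.43 (adjusted p = 0.013) (edgeR). Scaling bears on this comparison. Without TMM factors 4740 of all genes were higher and 1318 lower, in place of 2814 and 2335, the median of all genes was 0.35 in place of 0.07, and of the members Rhob alone was lower. Of 29 tested other early response genes 16 were higher, led by Cebpd at 2.64 and Trib1 at 2.39, and 3 lower, Sgk1 at -2.54, Egr2 at -1.99 and Tiparp at -1.13. All 4 cytokine genes tested, of 12 listed, were higher (Cxcl2, Cxcl1, Cxcl10, Ccl2). Of 17 other heat shock genes 2 were higher and 7 lower, with Dnaja4 at -2.15, and of 11 stress genes 4 were higher and none lower. The subclusters holding most cells of a class differed between libraries, 0, 4, 2, 14 and 12 for nmSC and 5, 13, 11, 11 and 11 for mSC.

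The last comparison set ganglion nuclei beside dissociated nerve cells at the same age, P14. Tissue, nuclei against cells and the Cell Ranger version differ together between these 2 libraries and cannot be told apart, so ratios are given with counting intervals and no test. In Schwann cells 31 of 32 members were lower in nuclei, 9 of them at least 4-fold, all early members (all genes 4.92% at least 4-fold lower and 13.2% at least 4-fold higher). The median member had a log2 ratio of -1.57 and the median gene -0.01. In Schwann cells Gadd45b stood at 103 CPM in nerve cells and 3.40 CPM in ganglion nuclei, a ratio of 0.0329 (95% interval 0.00675 to 0.0966). Atf3 stood at 96.8 CPM in nerve cells and 6.80 CPM in ganglion nuclei, a ratio of 0.0703 (95% interval 0.0256 to 0.154). For Fos the levels were 439.8 CPM in nerve cells and 153 CPM in ganglion nuclei, a ratio of 0.348 (95% interval 0.290 to 0.414), and for Jun 648 CPM in nerve cells and 135 CPM in ganglion nuclei, a ratio of 0.208 (95% interval 0.172 to 0.25). Gadd45b and Atf3 were thus further apart than Fos and Jun. Egr1 stood at 258 CPM in nerve cells and 66.9 CPM in ganglion nuclei and Hspa8 at 473 CPM in nerve cells and 211 CPM in ganglion nuclei. Hspa1a and Hspa1b were low on both sides, with 17.7 CPM in nerve cells and 5.67 CPM in ganglion nuclei for Hspa1a and 7.86 CPM in nerve cells and 3.40 CPM in ganglion nuclei for Hspa1b.

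**Figure D4:**
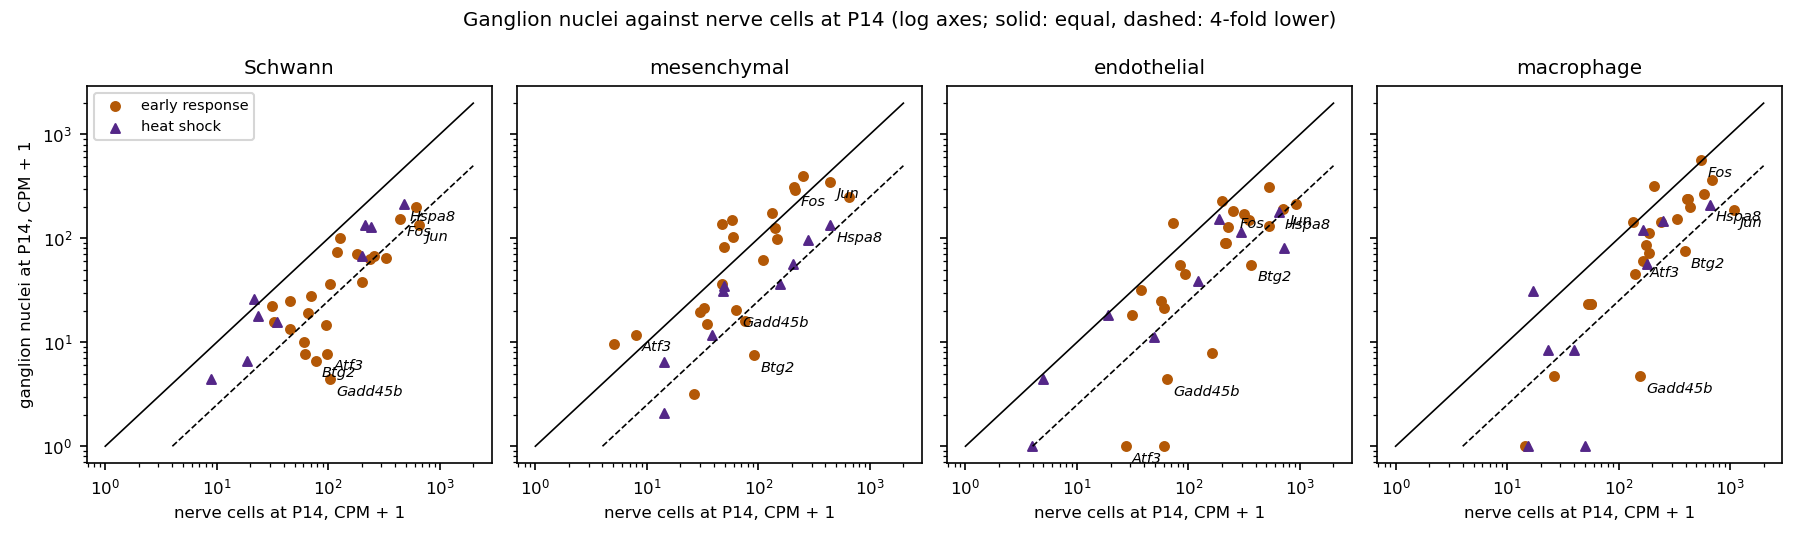
Level of each member in ganglion nuclei (vertical axis) against dissociated nerve cells at P14 (horizontal axis), both as CPM + 1 on log axes, in 4 matched classes, with a solid line at equal levels and a dashed line at 4-fold lower levels in nuclei. In Schwann cells 31 of 32 points lie below the solid line, and in mesenchymal cells 22 of 32 do.

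Endothelial cells had 8 members at least 4-fold lower in nuclei (all genes 8.97% lower, 18.5% higher), macrophages 6 (10.4% and 22.2%) and mesenchymal cells 5 (11% and 19.3%), and no member was at least 4-fold higher in nuclei in any of the 4 classes. In the mesenchymal class 22 of 32 members were lower in nuclei, with a median log2 ratio of -0.63, against 0.27 for all genes. Fos stood there at 211 CPM in nerve cells and 293 CPM in ganglion nuclei, and in macrophages at 547 CPM in nerve cells and 561 CPM in ganglion nuclei. Atf3 and Socs3 had 0 UMIs in endothelial nuclei against 26.3 and 59.5 CPM in nerve cells, at least 2.56-fold and at least 5.77-fold lower when 0 is taken to allow 3 UMIs in that sum. Hspa8 was lower in each class, with ratios of 0.445 in Schwann, 0.278 in endothelial, 0.319 in macrophage and 0.300 in mesenchymal cells. The sums rest on 468 Schwann, 351 mesenchymal, 150 endothelial and 153 macrophage nuclei. Scaling by the median of ratios would subtract a fixed amount from all log2 ratios of a class. The amount subtracted was -0.11 in Schwann, 0.12 in endothelial, 0.34 in mesenchymal and 0.53 in macrophage cells.

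Sensory neurons had the lowest sum of early members of the 8 ganglion classes, 257 CPM over 1316 nuclei. CPM is a share of all UMIs, and neuron nuclei were deeper than the rest. Their median was 4873.5 UMIs, against 1469 in macrophage nuclei, the lowest, and 2290 in mesenchymal nuclei, the next highest. The ranking is thus one of shares, and counts per nucleus were not compared. Satellite glia, the cells that wrap neuron bodies, held 1207 CPM, Schwann nuclei 1157 CPM, mural nuclei 974 CPM and perineurial nuclei 1571 CPM. Endothelial nuclei held 2276 CPM, mesenchymal nuclei 2677 CPM and macrophage nuclei 3335 CPM. In neurons Fos read 9.98 CPM, Atf3 2.21 CPM and Jun 56.2 CPM. In satellite glia Fos read 208 CPM, Egr1 175 CPM, Fosb 144 CPM and Egr3 87.3 CPM. The Egr3 value of satellite glia was the highest of the 8 ganglion classes. Hspa8 ran from 81.9 CPM in neurons to 211 CPM in Schwann nuclei.

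The share of single cells with at least 1 UMI of a member was compared after thinning every cell to 2000 UMIs and leaving shallower cells out. Of the Schwann cells 374, 324, 177, 855 and 228 were left out and 4961, 7691, 875, 1051 and 871 kept, and of the macrophages 26, 62, 121, 327 and 71 were left out and 179, 350, 856, 360 and 1667 kept. At that depth Fos was found in 30.7% (29.4% to 32%), 91.7%, 46.4% (43.1% to 49.8%), 88.4% and 90.5% (88.3% to 92.3%) of Schwann cells (exact 95% intervals). Most Schwann cells thus held a Fos UMI at P7, P28 and P60, and fewer did at P0 and P14. Without thinning the P14 share was 58.5% and the P60 share 88.2%. In macrophages the Fos shares were 35.8%, 90.9%, 58.6%, 86.1% and 86.9%. Hspa1a was found in 1.71%, 10.7%, 4.34%, 16.9% and 29.5% of Schwann cells. Free RNA gives UMIs in cells that do not express a gene, so the shares count cells with a UMI and are not read as shares of cells expressing the gene. At 1000 UMIs, with 79 nerve Schwann cells, 105 ganglion Schwann nuclei, 381 satellite glia and 289 neurons left out, Fos was in 30.0% (27.1% to 33.0%) of nerve Schwann cells at P14, 9.92% (7.04% to 13.5%) of ganglion Schwann nuclei, 16.3% (14.8% to 18%) of satellite glia and 0.876% (0.401% to 1.66%) of neurons.

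**Figure D5:**
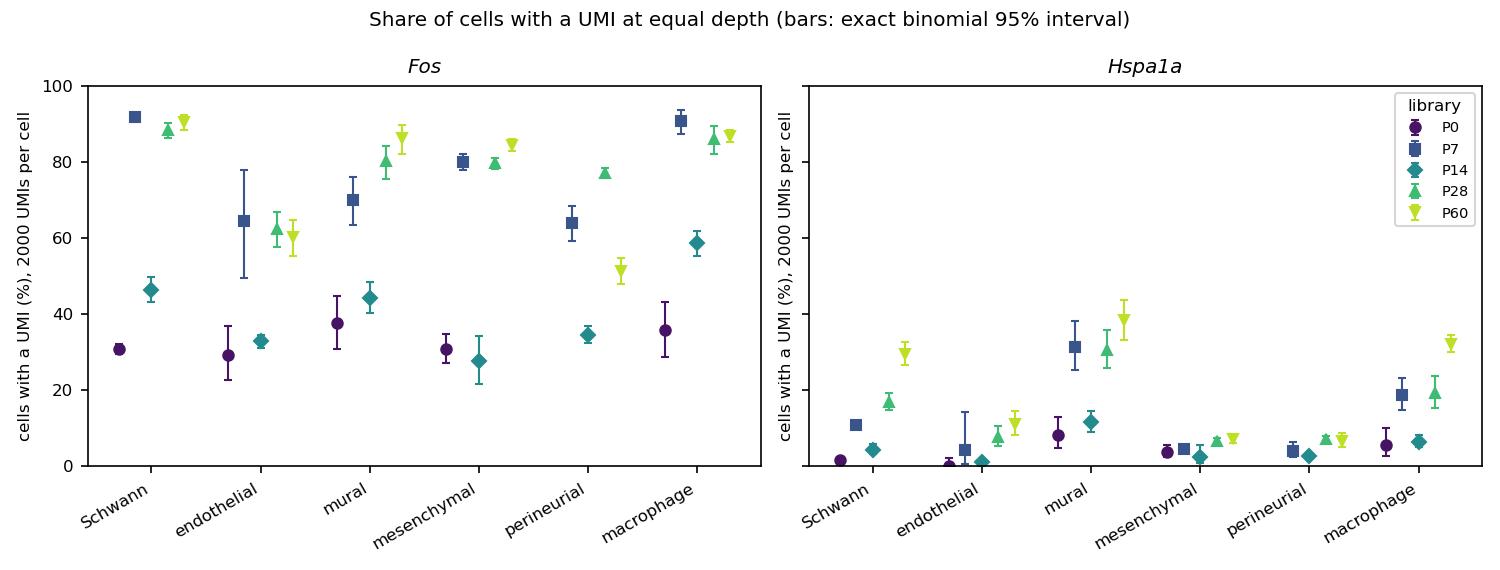
Share of cells with at least 1 UMI after thinning to 2000 UMIs (percent, with exact 95% intervals) for Fos (left) and Hspa1a (right), with 1 point per nerve library in each class. The Fos share of Schwann cells lies at 30.7% and 46.4% at P0 and P14 and between 88.4% and 91.7% at P7, P28 and P60.

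Across the 29 class and library sums, the members differed in how closely they followed one another. Correlations were taken on log2(CPM + 1) and are descriptions with no p, since sums share libraries and depth. Pearson's r with the mean of the other early members was 0.96 for Junb, 0.93 for Fos, 0.93 for Jun, 0.92 for Fosb and 0.91 for Zfp36. It was lowest among early members for Nr4a2 (0.43) and Gadd45b (0.44). Hspa1a (0.76), Hspa1b (0.66) and Hspa8 (0.64) followed the early members more closely than Hspb1 (0.08), Hsph1 (0.03) and Hspe1 (-0.17) did. Among 3726 other genes with a mean of at least 50 CPM, the most like the early mean were Gm26532 (0.88), Sertad1 (0.75), Cox17 (0.70), the cyclin gene Ccnl1 (0.70) and the antiproliferative gene Btg1 (0.68). Nearest to the heat shock mean were Tob1 (0.74), Coq10b (0.72) and Eif4a2 (0.72). The early mean and the mean of the heat shock members correlated at 0.66.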

How the data were processed

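The deposited matrices hold UMI counts per gene and called barcode for 6 libraries, made by the authors with Cell Ranger 5.0.1 (P0, P14, P28, P60), 7.0.0 (P7) and 7.1.0 (ganglion), per the file headers. The submitters' processing notes name Seurat and mm9. The members, the related lists, the markers, the tests and the alternatives were chosen with earlier results of these data known. Members were matched by Ensembl identifier. Barcodes with at least 300 genes, 500 UMIs and a mitochondrial share up to 20% (5% for nuclei) were kept. Doublets scored by Scrublet were removed, or the top 8% where the caller marked under 0.5% (P0, ganglion). Cells were clustered with scanpy 1.11.5 (2000 variable genes, 30 components, 15 neighbours, Leiden resolution 1), without the members and 77 listed genes. A cluster was named where at least 3 fixed markers were detected and its leading genes did not go against the name.

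Counts were summed per library and class (at least 20 cells). edgeR 4.0.16 (R 4.3.3; TMM, filterByExpr, robust quasi-likelihood, library as block) tested classes within libraries, with Benjamini-Hochberg adjustment. Classes of a library come from the same pooled animals, which is where the pairing comes from. DESeq2 1.42.0 was an alternative. On simulated counts for endothelial over Schwann (16608 genes) the fit called 100% of 4-fold increases and 18% of 2-fold increases, and 4.20% of its calls were false. For nmSC over mSC (13420 genes) these were 94%, 16% and 5.31%. Decreases of 4-fold were called at 84% in both comparisons, and those of 2-fold at 26% and 20% in that order. The simulation gave all genes the same fixed spread and changed far fewer genes than were called in the data. Library depth ranged from 60763221 to 101441907 UMIs in the nerve, with 20845972 in the ganglion. Intervals at 95% (Poisson, Clopper-Pearson, conditional) cover counting error only, and 0 UMIs are taken to allow 3. Promoters are from RefSeq's GRCm38.p6 table, in which 27 of 32 members matched. The text gives every library's value for the 3 members with the largest log2 fold change among those past the test in each class comparison and, in the 6 nerve classes, for Fos, Jun, Egr1, Atf3, Hspa1a, Hspa1b and Hspa8, and the largest changes of each related list. A measure of free RNA between classes is not reported here.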

Additional observations from a re-analysis of the deposited data

Results flagged for a closer look

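The step from the P28 to the P60 library in the summed level of the 23 early response members went up in some nerve classes and down in others. The ratio of P60 over P28 was 1.32 in Schwann cells (95% counting interval 1.31 to 1.34), 1.47 in mesenchymal cells, 1.21 in macrophages and 1.20 in mural cells. It was 0.967 in endothelial cells and 0.578 in perineurial cells (0.572 to 0.585). With 1 library per age the difference between classes was not tested. Fos in perineurial cells stood at 1221 CPM at P28 and 519 CPM at P60, and in mesenchymal cells at 1218 and 1882 CPM.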

How the results depend on the processing

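Of 95 member calls in the 6 class comparisons, 1 was lost with DESeq2, 6 without TMM factors (an alternative chosen after seeing the data), 2 with a stricter cell filter, 9 with doublets kept, 6 without a filter on low counts, 6 and 3 at Leiden resolutions 0.5 and 1.5, 5 with the listed genes kept in clustering, and 11 to 17 without 1 library. No call changed direction. Without the library block 70 were lost. Members higher and lower without the block were 1 and 3 in endothelial cells, 2 and 2 in mural cells, 4 and 2 in macrophages, 1 and 0 in nmSC over mSC, with 2 lower in mesenchymal and 4 lower in perineurial cells. Beside the 0 lower in nmSC, edgeR's unadjusted p was under 0.05 for 1 lower member, and DESeq2 with the block called 4. Leaving out 1 library gave 7 to 10 higher and 8 to 11 lower in endothelial cells, 5 to 8 and 3 to 7 in mural cells, 2 to 4 and 4 to 10 in mesenchymal cells, 2 to 4 and 10 to 13 in perineurial cells, 15 to 18 and 3 to 5 in macrophages, and 9 to 17 and 1 to 5 in nmSC over mSC. With doublets kept 5 members were lower in mural cells and 3 in macrophages. Without TMM factors 10 were lower in mesenchymal cells and 1 in nmSC, and the median of all genes moved from -0.09 to -0.25 in macrophages. Median-of-ratios scaling gave 9 mesenchymal and 10 macrophage members at least 4-fold lower in nuclei, in place of 5 and 6. At Leiden resolution 0.5, 16 perineurial members ranged at least 4-fold between libraries in place of 7. The Fos share of Schwann cells was 30.0% at P14 and 80.6% at P60 at 1000 UMIs, and 58.5% and 88.2% without thinning. The cause of the changes with scaling, doublets and clustering was not tested, while fits without 1 library hold fewer samples. Levels near 3 UMIs in the ganglion sums, where the smallest holds 91338 UMIs, are limited by depth.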

Other observations

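The neurons of the ganglion fell into clusters that differed in their early response sums. The clusters of neurons ranged from 152 to 943 CPM for the 23 early members, and the highest belonged to a cluster of 145 nuclei with a median of 698 UMIs. That cluster and 4 of the other 7 had no fixed neuron marker among their leading genes. Hspa8 in that cluster read 910.2 CPM, where the other clusters read 48.6 to 145 CPM. Jun ran from 4.05 to 118 CPM over all of them, and Atf3, a marker of injured neurons, from 0 to 6.55 CPM. All neurons together held 23 UMIs of Atf3, so its cluster values rest on very few UMIs and their order is not read.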
